A study of Arabidopsis thaliana with 4 samples.

Results

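Messenger RNA of the oldest siliques of an Arabidopsis thaliana series, stage 4 (16 to 20 days after the flower opened), was set against that of the youngest, stage 1 (0 to 5 days). Siliques are the pods that enclose the seeds. Both came from the wild-type accession Col-0 kept in long days, and the labels name no other genotype and no treatment. Each stage was 1 library, so a difference below has no replicate check, no p-value is given, and higher and lower describe these 2 libraries alone. The values were the authors' FPKM, fragment counts divided by transcript length and library size. A gene's difference was log2(FPKM + 1) in stage 4 minus that in stage 1, and 2-fold and 8-fold limits stand for 1 and 3 on that scale. Of 29971 loci, 11791 were compared: those above 0 in both libraries and at FPKM 10 or more in the higher one. A locus under FPKM 10 in 1 library therefore entered only through the other, which fixed its direction. Among the rest, 6690 were listed at 0 in both libraries, 8701 were above 0 in both but under FPKM 10, and 133 reached FPKM 10 in 1 library and were listed at 0 in the other.

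As background, a silique is made of maternal pod wall tissue and of seeds, and its makeup shifts as it ages. Soon after fertilisation the pod elongates and is green, its cells divide and expand, and remnants of flower and pollen can still be present. Later the embryo fills with oil and protein, the seed acquires tolerance of drying, and the pod wall prepares to open. In RNA from whole fruits, fewer cells of a type and less RNA per cell cannot be told apart.

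Of the 11791 loci, 2780 (23.6%) lay 2-fold or more above their stage 1 value in stage 4 and 2815 (23.9%) 2-fold or more below it, while 6196 differed by less. The 23.6% and 23.9% are the background for each count of a gene group below. Beyond the 8-fold limits were 626 higher (5.31%) and 617 lower loci (5.23%). The median difference of all loci compared was 0.05, and the share of higher loci among the 2-fold calls was 49.7%. That balance rests on the deposited scale. The locus AT2G01021, on TAIR10 chromosome 2 at 6571 to 6672, is very short and held 78.3% of the FPKM sum in stage 1 and 6.65% in stage 4. With both libraries brought to equal FPKM sums, the median of all loci moved to 2.24 and the share of higher loci to 93.4%. Directions below are on the deposited scale, and the value under equal FPKM sums is given beside each group median that changed sign there. When the sums were equalised without loci under 300 bases, the share of higher loci was 54.5%.

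**Figure D1:**
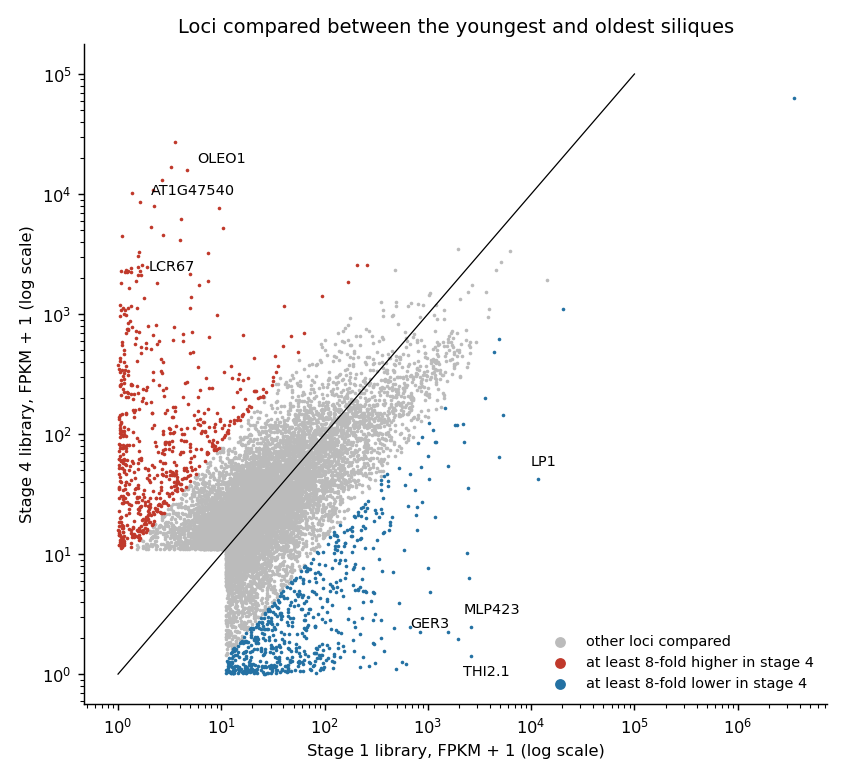
FPKM + 1 of the 11791 loci compared, in the stage 1 library (horizontal, log scale) and the stage 4 library (vertical, log scale), 1 point per locus with the line of equal values. The 626 red and 617 blue points lie at least 8-fold above or below in stage 4; the lone point at the far right is the short locus AT2G01021.

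Leaving storage proteins aside, the 40 genes furthest higher in stage 4 held more oil body and seed maturation genes than genes of any other characterised function. All 40 stood at 8.57 FPKM or less in stage 1 and at 834 FPKM or more in stage 4, and their differences ran from 9.38 to 12.35. By function, 7 encoded oil body proteins, 7 late embryogenesis abundant (LEA), dehydrin or other seed maturation proteins, and 4 small cysteine-rich peptides of the defensin, thionin or knottin type. A further 3 encoded proteins of the Bet v 1 fold, 3 glycine-rich or proline-rich wall proteins and 2 enzymes against oxidative stress. There were 7 with no characterised function, among them AT1G62000, AT1G62080 and AT1G62225. AT5G45690 is also among these, although AT1G05510, whose RefSeq name carries the same domain, was counted with the oil body proteins. The 40 furthest lower, with differences from -6.37 to -10.84, were spread over more functions, with no more than 4 genes in any. They held 4 GDSL esterases or lipases, 4 arabinogalactan or fasciclin-like proteins, 4 defensin-type or thionin peptides, 3 glucan-remodelling enzymes, 2 pectin methylesterase inhibitors, 2 wax or fatty acid enzymes, 2 RALF-like peptides and 2 myrosinase-binding proteins.

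The values in stages 2 and 3 place these differences along the series. Of the 40 genes higher in stage 4, 34 had their highest value of the 4 stages there and the other 6 in stage 3. The median over the 40 was 0.507 FPKM in stage 1, 21.1 FPKM in stage 2, 1089 FPKM in stage 3 and 2264 FPKM in stage 4. Of the 40 genes lower in stage 4, 38 had their highest value in stage 1, and 22 had their lowest already in stage 3; in 2 of these, LCR61 and AT1G56415, that value was listed as 0, which can be a failed estimate. Their median was 302 FPKM in stage 1, 38.9 FPKM in stage 2, 0.874 FPKM in stage 3 and 0.745 FPKM in stage 4. By these medians, most of the distance on the log2 scale lay before stage 3 in both sets. Among the 40 higher genes, 8 still stood in stage 3 under 10% of their stage 4 value.

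**Figure D2:**
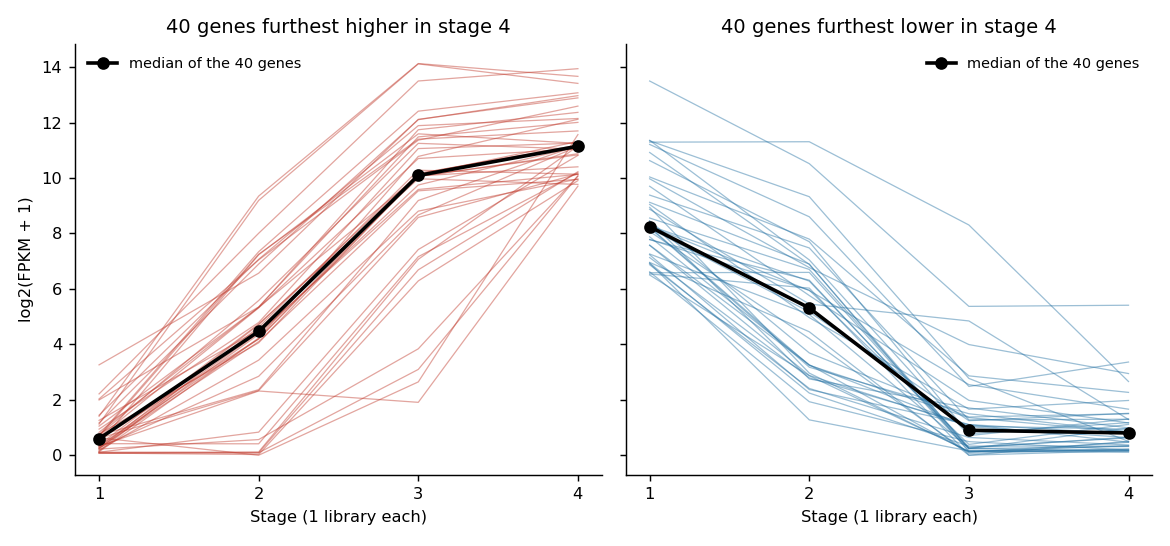
log2(FPKM + 1) in each of the 4 stages (1 library each) for the 40 genes furthest higher (left) and the 40 furthest lower (right) in stage 4 against stage 1, 1 line per gene, storage proteins left out. The black line is the median of the 40 genes, which stands at 2264 FPKM in stage 4 on the left and at 302 FPKM in stage 1 on the right.

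The 8 late genes among the 40 were picked by their stage 3 value relative to stage 4, so their lateness is no separate result. Their stage 3 values ran from 2.75 FPKM in HSP17.6A to 170 FPKM in EM1. LCR67, a defensin gene (chromosome 1, 28472357 to 28472891), was at 0.546 FPKM in stage 1, listed at 0 in stage 2, at 5.25 FPKM in stage 3 and at 3027 FPKM in stage 4. HSP17.6A, a small heat shock protein gene, was at 0.252, 3.98, 2.75 and 834 FPKM. GEA6, the LEA gene also called EM6, was at 0.0798, 0.0629, 7.54 and 1073 FPKM. Stage 4 thus stood alone for these 3 genes. NSP2, whose product directs glucosinolate breakdown to nitriles, was at 0.0554, 0.0166, 77.1 and 957 FPKM. The others were EM1, AT1G14930, AT1G14940 and the uncharacterised AT1G68250.

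Seed oil and drying genes were the largest functional groups among the first 40. Each of the 12 oil body genes compared was past the 2-fold limit on the higher side (background 23.6%), with a median difference of 8.95; HSD1 was listed at 0 in stage 1 and at 1.84 FPKM in stage 4. Oleosins coat the oil droplets of the seed. OLEO2 stood at 1.24, 118, 4397 and 8019 FPKM in stages 1 to 4. OLEO4 stood at 8.57, 93.7, 4434 and 7583 FPKM. The caleosin ATS1, a calcium-binding peroxygenase of the same droplets, stood at 0.185, 25.1, 1139 and 2328 FPKM. RD20, a caleosin known from leaves under drought, had the least distance, with 201 FPKM in stage 1 against 658 FPKM in stage 4.

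Of the 26 LEA and dehydrin genes compared, 23 were at least 2-fold higher, 22 of them at least 8-fold, and none was lower (median 7.89). Those 22 were under FPKM 10 in stage 1 and so entered only through stage 4, which fixed their direction. LEA proteins protect membranes and proteins in drying cells. EM1 stood at 0.0769, 0.780, 170 and 1799 FPKM in stages 1 to 4. The 3 members inside the 2-fold limits were the cold-inducible dehydrins COR47, with 150 FPKM in stage 1 against 106 FPKM in stage 4, ERD14, with 447 and 488 FPKM, and ERD10, with 59.5 and 92.9 FPKM. Those dehydrins were already abundant in the youngest fruits.

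Fatty acid synthesis did not share the size of the oil body difference. Of 23 genes compared, 10 were higher and 3 lower, with a median of 0.66. The largest difference was that of KCS18 (FAE1), which elongates the long-chain fatty acids of seed oil, at 0.0398 FPKM in stage 1 against 143 FPKM in stage 4. FAD3, which makes linolenic acid, was at 148 and 597 FPKM. The desaturase FAD2 was abundant in both, at 1046 and 1485 FPKM. CAC1, a subunit of the plastid carboxylase that starts fatty acid synthesis, was lower, at 105 and 36.1 FPKM. ICL, the isocitrate lyase of the glyoxylate cycle, which turns fat into sugar in seedlings, stood at 0.475 FPKM in stage 1 against 565 FPKM in stage 4.

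Among regulators of seed maturation, 7 of 9 compared were higher and none lower (median 5.94). Of the 12 with a row, 7 were under 1 FPKM in stage 1. FUS3, a B3 factor of maturation, stood at 0.152 FPKM in stage 1 against 114 FPKM in stage 4. The bZIP factor EEL was at 1.17 and 331 FPKM and the dormancy gene DOG1 at 0.0544 and 117 FPKM. FUS3, EEL and DOG1 were under FPKM 10 in stage 1 and so entered only through stage 4, which fixed their direction. LEC1 and LEC2, which act earlier in the embryo, did not reach FPKM 10 in either library: LEC1 was at 0.489 FPKM in stage 1, 78.6 FPKM in stage 2 and 8.00 FPKM in stage 4. The net comparison therefore misses their maximum. Of 15 loci of abscisic acid signalling and metabolism, 10 were higher and 1 lower (median 1.53). AHG1, a phosphatase of abscisic acid signalling in seeds, was at 0.192 and 71.6 FPKM, and NCED2, an enzyme of abscisic acid synthesis, at 25.3 and 2.18 FPKM.

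Protection against heat and oxygen followed the same direction for particular members. All 5 small heat shock genes compared were higher (median 4.03). Each was under FPKM 10 in stage 1 and so entered only through stage 4, which fixed the direction. A further 5 of the list lay under FPKM 10 in both libraries, and among them HSP18.2 alone was lower, at 4.56 and 1.13 FPKM. HSP17.4 stood at 0.952 FPKM in stage 1, 31.2 FPKM in stage 3 and 789 FPKM in stage 4. Over all 141 genes named for heat shock proteins or chaperones, however, 38 (27.0%) were higher and 31 (22.0%) lower (median 0.16), near the 23.6% and 23.9% of all loci. The plastid chaperonins CPN60A, with 354 and 43.7 FPKM, and CPN60B, with 176 and 28.6 FPKM, were among the lower ones. PER1, a peroxiredoxin of dry seeds, stood at 0.171, 19.5, 858 and 2246 FPKM in stages 1 to 4. In its list of 13 antioxidant and metal-binding genes, 6 were higher and 1 was lower: the copper-zinc superoxide dismutase CSD2, at 885 and 284 FPKM. Raffinose sugars also accumulate in drying seeds; of 8 loci of sucrose and raffinose sugars, 5 were higher and 1 lower, with GolS1, a galactinol synthase, at 1.82 and 84.5 FPKM.

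**Figure D3:**
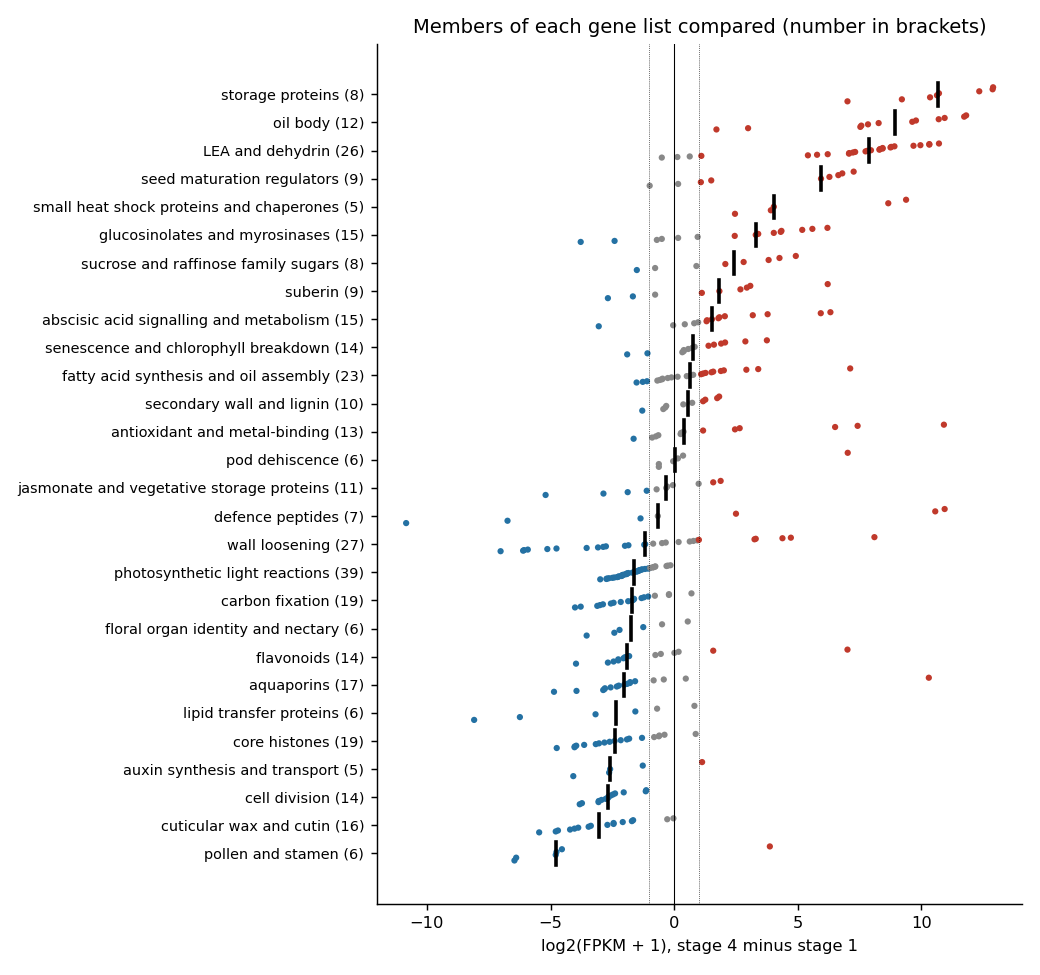
Difference of log2(FPKM + 1), stage 4 minus stage 1, for each gene compared in the lists with at least 5 such genes, ordered by the list median (black bar). Red points are at least 2-fold higher and blue points at least 2-fold lower; medians run from 10.67 for storage proteins to -4.78 for pollen and stamen genes.

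Genes of seed filling were not all that separated the libraries: in several families individual members stood at opposite ends. Small cysteine-rich peptides, many of them toxic to fungi, were the clearest case. Of 42 defensin-like, thionin or knottin genes compared, 11 (26.2%) were higher and 26 (61.9%) lower, against 23.6% and 23.9% of all loci. Of these, 7 and 19 were so by at least 8-fold. AT1G47540 (chromosome 1, 17455533 to 17456170), with a knottin fold, stood at 0.648, 161, 5438 and 8608 FPKM in stages 1 to 4. Its difference of 12.35 was the largest of any single protein-coding gene that is not a storage protein. THI2.1, a thionin (chromosome 1, 27198433 to 27199444), stood at 2593, 640, 5.82 and 0.411 FPKM. Its difference of -10.84 was the lowest of these genes.

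One cluster on chromosome 2 held both directions. PDF2.1 (538250 to 539055) stood at 3.08, 131, 2634 and 6171 FPKM in stages 1 to 4. LCR72 (544707 to 545429) stood at 120, 1.42, 0.114 and 0.133 FPKM, and LCR73 (546608 to 547026) at 2506, 2532, 315 and 5.31 FPKM. Of 2 further members, LCR69 was at 1424 and 901 FPKM and LCR68 at 422 and 164 FPKM in stages 1 and 4. Neighbouring genes of 1 peptide family thus differed in both sign and timing. The 250 bases before the start of PDF2.1 (chr2:538000-538249, plus strand), LCR72 (chr2:544457-544706, plus strand) and LCR73 (chr2:546358-546607, plus strand) are shown because these neighbours differ most. Bases are RefSeq TAIR10.1, each written 5′ to 3′ on the strand of its gene, and capitals mark matches to CATGCA or ACGTG on either strand.
PDF2.1: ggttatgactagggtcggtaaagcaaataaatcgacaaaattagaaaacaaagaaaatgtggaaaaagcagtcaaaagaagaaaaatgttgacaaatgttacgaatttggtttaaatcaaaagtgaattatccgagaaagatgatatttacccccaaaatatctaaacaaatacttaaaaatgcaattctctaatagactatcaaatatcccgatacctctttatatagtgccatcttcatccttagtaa
LCR72: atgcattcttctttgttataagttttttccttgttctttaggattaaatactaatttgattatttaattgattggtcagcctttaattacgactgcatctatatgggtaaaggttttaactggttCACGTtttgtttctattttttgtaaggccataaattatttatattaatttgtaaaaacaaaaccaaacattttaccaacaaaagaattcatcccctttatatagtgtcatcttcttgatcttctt
LCR73: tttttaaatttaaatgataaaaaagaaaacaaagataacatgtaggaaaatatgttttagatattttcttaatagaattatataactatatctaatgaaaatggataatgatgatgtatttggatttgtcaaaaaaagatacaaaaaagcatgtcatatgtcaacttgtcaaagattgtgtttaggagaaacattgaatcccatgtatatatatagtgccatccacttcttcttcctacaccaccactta

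The Bet v 1 type proteins, named after the birch pollen allergen and able to hold small hydrophobic molecules, also stood in both directions. Of 26 compared, 10 (38.5%) were higher and 9 (34.6%) lower, against 23.6% and 23.9% of all loci. This family was chosen after values were seen. The 3 tandem genes AT1G14930, AT1G14940 and AT1G14950 (chromosome 1, 5152263 to 5158269, minus strand) were the only run of 3 neighbouring genes with differences all above 10. AT1G14950 stood at 0.0888, 17.7, 1754 and 4438 FPKM in stages 1 to 4. AT1G14940 stood at 0.0646, 0.086, 133 and 2274 FPKM. AT1G14930 stood at 0.0463, 0.0618, 102 and 1196 FPKM, so that all 3 were highest in stage 4. At the other end, MLP423 stood at 2624, 131, 0.632 and 1.47 FPKM and MLP168 at 527, 30.2, 2.16 and 2.93 FPKM. Such tandem copies can share reads, so the split of values among the 3 is uncertain. The windows before their starts are given because all 3 genes had their highest value in stage 4. They are those of AT1G14930 (chr1:5153085-5153334, minus strand), AT1G14940 (chr1:5155565-5155814, minus strand) and AT1G14950 (chr1:5158270-5158519, minus strand), with the same capitals.
AT1G14930: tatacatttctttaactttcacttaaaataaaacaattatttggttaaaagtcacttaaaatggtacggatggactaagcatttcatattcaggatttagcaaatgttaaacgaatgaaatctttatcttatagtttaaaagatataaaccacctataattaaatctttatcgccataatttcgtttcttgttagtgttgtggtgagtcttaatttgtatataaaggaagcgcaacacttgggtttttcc
AT1G14940: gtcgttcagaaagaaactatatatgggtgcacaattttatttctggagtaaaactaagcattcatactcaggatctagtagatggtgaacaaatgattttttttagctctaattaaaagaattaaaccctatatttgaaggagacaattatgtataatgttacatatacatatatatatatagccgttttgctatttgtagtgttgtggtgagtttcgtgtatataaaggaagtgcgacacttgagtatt
AT1G14950: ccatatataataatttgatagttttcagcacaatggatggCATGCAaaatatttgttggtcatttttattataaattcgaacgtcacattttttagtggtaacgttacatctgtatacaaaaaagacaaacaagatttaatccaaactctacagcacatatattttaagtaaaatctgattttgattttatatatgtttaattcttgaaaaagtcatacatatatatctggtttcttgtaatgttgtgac

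The 3 tandem windows held 1 CATGCA in all, before AT1G14950, and no ACGTG match. The letters CATGCA are the core of the RY element, to which B3 factors such as ABI3 and FUS3 can bind, and ACGTG is the core of elements bound by bZIP factors of abscisic acid responses. Both were searched on both strands in the 250 bases before each deposited gene start; a palindromic match of the ACGT core counts on each strand. CATGCA was present in 19 of the 40 windows (47.5%), against 7.38% of the 11104 windows of single protein-coding genes compared and 8.12% of all 23142 such windows. ACGTG was present in 24 (60%), against 28.4% and 25%. Among the 40 genes furthest lower the shares were 7.5% and 30%. Over the 597 such genes at least 8-fold higher they were 22.3% and 42.5%, and over the 589 at least 8-fold lower 10.5% and 22.1%. The I-box core GATAAG, known from light-regulated genes, was in 16.2% of the first and 11.4% of the second, against 13.6% of those compared. These shares describe letters in windows and no binding was measured.

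Both motifs were present in 12 of the 40 windows. The 4 with most matches belonged to OLEO1 (chr4:12900180-12900429, plus strand), AT1G54860 (chr1:20458632-20458881, minus strand), PER1 (chr1:17780252-17780501, plus strand) and LCR67 (chr1:28472107-28472356, plus strand). OLEO1 held 3 CATGCA and 5 ACGTG matches, AT1G54860 3 and 3, PER1 2 and 2, and LCR67 2 and 1. AT1G54860, named for a membrane glycoprotein precursor, was at 0.292 FPKM in stage 1 against 871 FPKM in stage 4, and its window lies between it and its divergent neighbour AT1G54870. That neighbour, named for an NAD(P)-binding fold, stood at 0.641 and 2302 FPKM.
OLEO1: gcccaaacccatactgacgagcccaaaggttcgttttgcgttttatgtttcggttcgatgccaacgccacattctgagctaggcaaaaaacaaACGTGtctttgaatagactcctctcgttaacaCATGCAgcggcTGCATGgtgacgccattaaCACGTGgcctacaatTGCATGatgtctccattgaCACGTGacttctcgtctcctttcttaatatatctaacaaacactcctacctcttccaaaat
AT1G54860: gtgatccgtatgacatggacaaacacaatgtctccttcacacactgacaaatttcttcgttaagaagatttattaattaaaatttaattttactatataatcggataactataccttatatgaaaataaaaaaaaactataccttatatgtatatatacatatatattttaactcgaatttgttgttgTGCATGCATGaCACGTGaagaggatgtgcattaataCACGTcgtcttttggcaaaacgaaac
PER1: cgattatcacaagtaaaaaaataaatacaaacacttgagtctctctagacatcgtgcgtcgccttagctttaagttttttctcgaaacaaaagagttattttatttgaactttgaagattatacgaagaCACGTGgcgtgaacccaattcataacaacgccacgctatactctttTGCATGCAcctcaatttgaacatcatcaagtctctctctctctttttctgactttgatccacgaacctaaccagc
LCR67: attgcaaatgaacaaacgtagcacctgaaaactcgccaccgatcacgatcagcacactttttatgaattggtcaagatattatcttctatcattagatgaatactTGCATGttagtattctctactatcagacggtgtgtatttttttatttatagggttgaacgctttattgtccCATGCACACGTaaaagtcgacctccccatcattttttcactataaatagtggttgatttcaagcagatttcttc

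Gibberellin-regulated GASA peptides, also a family chosen after values were seen, stood in both directions. Of 11 compared, 4 (36.4%) were higher and 7 (63.6%) lower, against 23.6% and 23.9% of all loci. Their median was -1.35, and 0.88 under equal FPKM sums. GASA3 stood at 0.334, 0.330, 142 and 1165 FPKM in stages 1 to 4. GASA2, its neighbour, stood at 0.135, 0.0311, 26.0 and 319 FPKM. GASA4 stood at 1049, 221, 6.27 and 3.81 FPKM. The levels of GASA3 and GASA4 thus exchanged places between stages 2 and 3. GASA5 was at 38.1 FPKM in stage 1 against 0.0885 FPKM in stage 4.

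Wall-loosening genes were mostly lower, with 14 of 27 compared lower and 5 higher (median -1.17, and 1.04 under equal FPKM sums). The enzyme XTH9, which cuts and rejoins xyloglucan, stood at 1002, 108, 14.9 and 6.70 FPKM in stages 1 to 4. The expansin EXPA6 stood at 281, 21.6, 1.38 and 3.08 FPKM. In the other direction, XTH25 stood at 4.06, 7.93, 442 and 1388 FPKM. XTH24 was abundant throughout, at 259 FPKM in stage 1 against 2556 FPKM in stage 4, and TCH4, a touch-induced member, was at 19.9 and 432 FPKM. All 5 higher members were xyloglucan enzymes and none was an expansin, while EXPA15 stood just short of the 2-fold limit at 114 and 228 FPKM.

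Water channels followed a like course. Of 17 aquaporins compared, 13 were lower, 1 was higher and 3 lay between (median -2.02, and 0.13 under equal FPKM sums). The plasma membrane channel PIP3 stood at 1568, 263, 79.9 and 52.9 FPKM in stages 1 to 4. GAMMA-TIP, the tonoplast channel of growing vegetative cells, stood at 1005, 192, 235 and 64.1 FPKM. TIP3;1, the tonoplast channel of seed storage vacuoles, was the 1 higher member, at 0.490, 17.3, 1059 and 1876 FPKM.

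**Figure D4:**
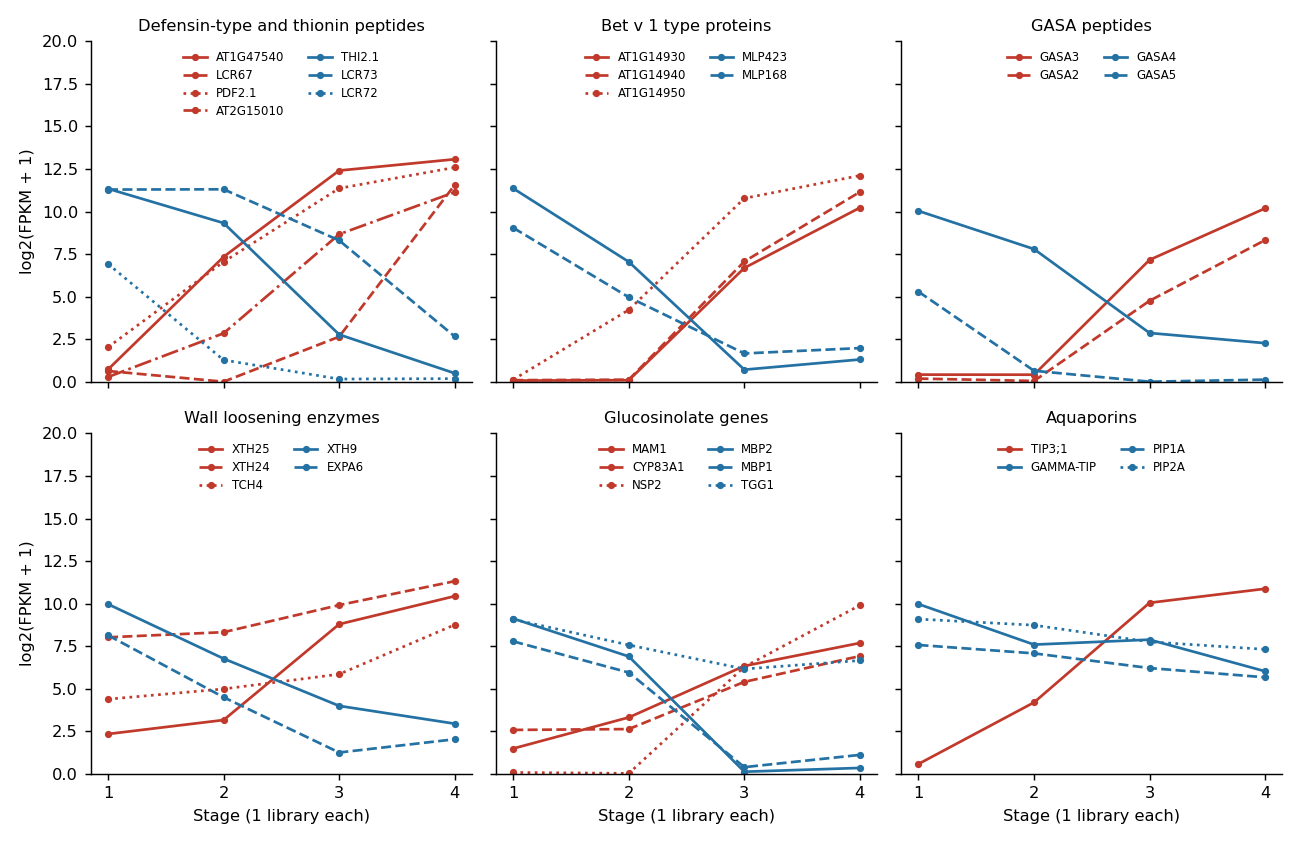
log2(FPKM + 1) in each of the 4 stages (1 library each) for chosen members of 6 gene groups; red genes were higher and blue genes lower in stage 4 than in stage 1. In each panel every red line ends above every blue one in stage 4, as GASA3 (0.334 to 1165 FPKM) and GASA4 (1049 to 3.81 FPKM).

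Genes of glucosinolate synthesis and breakdown stood in both directions. Glucosinolates are sulphur compounds of defence that myrosinase enzymes split when tissue is damaged. Of 15 loci compared, 9 were higher and 2 lower (median 3.30). The 9 higher ones of this list belong to synthesis and its regulation: MAM1, which extends the methionine chain, stood at 1.80 FPKM in stage 1 against 205 FPKM in stage 4, BCAT4 at 3.24 and 203 FPKM, CYP83A1 at 4.97 and 120 FPKM and the regulator MYB28 at 3.63 and 47.9 FPKM. The 2 lower ones were the myrosinases TGG1, at 539 and 100 FPKM, and TGG2, at 1188 and 85.6 FPKM. The myrosinase-binding proteins MBP1 and MBP2 were lower too, MBP2 at 556, 118, 0.0876 and 0.269 FPKM in stages 1 to 4. Outside the list, NSP2, of breakdown and described above, stood the other way, at 0.0554 and 957 FPKM. The synthesis enzyme FMO GS-OX2 was lower, at 12.5 and 1.03 FPKM. Higher were FMO GS-OX3, at 0.579 and 22.2 FPKM, FMO GS-OX4, at 17 and 85.2 FPKM, and FMO GS-OX5, at 13.4 and 33 FPKM. Genes of the indole branch lay inside the 2-fold limits, with CYP83B1 at 11.6 and 13.0 FPKM.

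Lipid transfer and surface lipid genes included the most abundant of the genes furthest lower. LP1, the gene of lipid transfer protein 1 (chromosome 2, 16130350 to 16131174), stood at 11558, 1464, 40.3 and 41.5 FPKM in stages 1 to 4. LTP6 stood at 4872, 6802, 291 and 63.6 FPKM. LTP2, however, stood at 1967, 127, 1818 and 3463 FPKM, so that it was low in stage 2 alone. In the list, 4 of 6 compared were lower and none higher (median -2.37). In the wider superfamily of lipid-transfer and 2S albumin proteins, storage proteins left out, 16 of 49 were higher and 24 lower; AT5G38160, at 9.46 FPKM in stage 1 against 5233 FPKM in stage 4, had its maximum of 23736 FPKM in stage 3.

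Of 16 genes of cuticular wax and cutin, the water-repelling layer of the plant surface, 14 were lower and none higher (median -3.03). CER1, of alkane synthesis, stood at 406, 228, 18.0 and 36.0 FPKM in stages 1 to 4. CYP96A15 (MAH1), which oxidises wax alkanes, stood at 375, 103, 0.219 and 0.543 FPKM. The 2 members inside the limits were CER3, at 166 and 162 FPKM, and the exporter ABCG12, at 76.8 and 63.3 FPKM. Suberin, a related polymer of the seed coat, showed the other direction: 6 of 9 were higher and 2 lower (median 1.83). FACT, of the suberin list, stood at 0.410, 0.301, 209 and 104 FPKM in stages 1 to 4. Most of the esterases named GDSL were lower, 24 of 33 with 6 higher (median -2.57). LTL1, of that family, stood at 490, 6.79, 0.0942 and 0.109 FPKM.

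Photosynthesis was lower as a group but by less. Of 39 genes of the light reactions compared, 30 were at least 2-fold lower (background 23.9%), none was at least 8-fold lower and none was higher, with a median of -1.62 (0.61 under equal FPKM sums). CAB1, of the same list, was listed at 0 in stage 1. The chlorophyll-binding protein LHCB5 stood at 2536, 1986, 905 and 475 FPKM in stages 1 to 4. For carbon fixation 15 of 19 were lower and none higher (median -1.69, and 0.55 under equal sums). The Rubisco small subunit gene RBCS1A stood at 14172, 5913, 2609 and 1928 FPKM, whereas RBCS2B stood at 1922, 1275, 38.2 and 118 FPKM. CP12-1, which binds 2 enzymes of the cycle, was level at 1137 and 981 FPKM. The RBCS genes other than RBCS1A are near-identical tandem copies, and their separate values are uncertain. Another Rubisco name among the 40 furthest lower, AT2G07732 on chromosome 2, at 467 and 1.44 FPKM, matched the mitochondrial genome over 715 bases at 99.7% identity and the chloroplast genome over 573 bases at 96.9%, so its reads cannot be assigned to the nuclear copy.

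Genes of protein synthesis and cell division were mostly lower. Of 258 genes whose product name is a ribosomal protein and does not name a plastid or mitochondrion, 186 (72.1%) were at least 2-fold lower and 7 (2.71%) higher. Their median was -1.41 against 0.05 for all loci, and under equal FPKM sums 0.81 against 2.24. AT4G25890, an acidic protein of the large subunit stalk, stood at 226, 69.7, 21.0 and 23.3 FPKM in stages 1 to 4. Some plastid proteins, such as PRPL35, at 482 and 65.0 FPKM, are not named as such and are in this count. Of 14 organelle ribosomal protein genes, 8 were lower and none higher (median -1.16, and 1.00 under equal sums). All 14 cell division genes compared were lower (median -2.67), but 14 of the 28 with a row stayed under FPKM 10 and were not compared. The ribonucleotide reductase subunit TSO2 stood at 126, 50.4, 15.9 and 8.01 FPKM. The replication clamp PCNA1 stood at 33.3, 30.6, 6.35 and 1.59 FPKM, so that both were lower in each later stage. Division genes under FPKM 10 in stage 4, as TSO2 and PCNA1 were, entered only through stage 1, which fixed their direction. Of 19 histone loci, 14 were lower and none higher (median -2.41).

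Several regulator families leaned to the older fruits. Of 20 WRKY factors, known from defence and senescence, 14 (70.0%) were higher and 1 lower (median 1.5). WRKY33 stood at 3.75, 8.53, 9.14 and 34.3 FPKM in stages 1 to 4, and WRKY18 at 7.39, 21.8, 8.74 and 46.5 FPKM. Their levels were low beside those of the seed genes. WRKY33 and WRKY18 were under FPKM 10 in stage 1 and so entered only through stage 4, which fixed their direction. Of 64 NAC or MYB factors, 30 were higher and 10 lower (median 0.92), with NAC2 at 3.5 and 267 FPKM and the epidermal factor MYB16 at 27.8 and 1.70 FPKM. Of 74 cytochromes P450, 36 were higher and 18 lower. CYP78A9, which affects fruit size, stood at 1.72, 3.79, 272 and 230 FPKM. Of 280 genes of ubiquitin ligases 85 were higher and 30 lower, and of 529 kinases 123 and 106, the last near the background of 23.6% and 23.9%.

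In the youngest fruits, several families stood high beside pollen markers. Of 15 pollen and stamen loci with a row, 5 of the 6 compared were lower and 1 higher, and their summed level was 534 FPKM in stage 1, 23.3 FPKM in stage 2, 64.9 FPKM in stage 3 and 43.4 FPKM in stage 4. In stage 1, 3 of the 15 were under 1 FPKM, and in stage 4, 11 were, with PRF5 and EXL6 listed at 0. AGP6 stood at 120, 3.39, 3.06 and 4.21 FPKM. Beside these stand RALF-like signal peptides, with 10 of 14 lower and none higher (median -4.16), and RALFL8 at 294, 8.03, 1.82 and 0.803 FPKM. Arabinogalactan and fasciclin-like proteins had 30 of 43 lower and 6 higher (median -2.34). Pectin-modifying enzymes and their inhibitors had 60 of 81 lower and 9 higher (median -2.78). The part of pollen in these counts was not tested. GRP17, a pollen coat protein, was the 1 higher member of the marker list, at 1.02, 0.658, 24.4 and 28.5 FPKM. In the other direction from its family, AGP14 stood at 166, 66.3, 1826 and 1861 FPKM.

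Pod wall and pod opening genes differed little, with 1 of the 6 compared higher and none lower. ALC, which patterns the separation layer, was at 52.2 FPKM in stage 1 against 50.6 FPKM in stage 4, IND at 9.40 and 10.5 FPKM, SHP1 at 45 and 58.0 FPKM and AGL8 (FUL) at 60.2 and 38.7 FPKM. These fruit markers were thus present in both libraries. ADPG1, the polygalacturonase that dissolves the separation layer, stood at 0.913, 8.67, 85.8 and 246 FPKM in stages 1 to 4. Of 10 secondary wall and lignin genes 4 were higher and 1 lower, none by 8-fold. In the senescence and chlorophyll breakdown list 6 of 14 were higher and 2 lower (median 0.78): SAG29, a sugar transporter, was at 31.9 and 442 FPKM, and the protease SAG12 at 719 FPKM in stage 1, 4.48 FPKM in stage 2 and 192 FPKM in stage 4.

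The small groups that follow stand beside 23.6% higher and 23.9% lower among all loci, and their departure from those shares was not tested. Of 14 flavonoid loci 8 were lower and 2 higher (median -1.91, and 0.23 under equal FPKM sums), the laccase TT10 being at 1.18 and 280 FPKM. Of 11 jasmonate and vegetative storage protein loci 4 were lower and 2 higher, with VSP1 at 5286, 300, 20.7 and 143 FPKM in stages 1 to 4. Of 6 floral organ and nectary genes 4 were lower and none higher (median -1.73, and 0.28 under equal sums). Of 5 auxin genes 4 were lower and 1 higher, the auxin carrier PIN7 at 37.1 and 1.25 FPKM. Of 8 endosperm loci only PHE1 reached the FPKM limit, at 8.04 and 17.7 FPKM. Of 7 defence peptides 3 were higher and 3 lower. BGLU18, the enzyme that releases abscisic acid from its glucose ester, was in no list and stood at 1580, 207, 0.708 and 1.26 FPKM, and GER3, a germin, at 1936, 117, 0.180 and 0.971 FPKM.

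Of the remaining families some stood near the background of 23.6% higher and 23.9% lower and others far from it. Of 22 peroxidases 7 were higher and 9 lower, of 24 tubulins and kinesins 1 and 9, of 55 glycosyltransferases 22 and 9, and of 118 sugar and other facilitator transporters 33 and 31. Of 15 AP2/ERF factors 6 were higher and none lower, with the ethylene response factor EBP at 46.4, 357, 1279 and 651 FPKM in stages 1 to 4. Of 57 auxin-responsive genes 18 were higher and 25 lower. Of 37 glycine-rich proteins 13 and 14 were, and of 57 cysteine or aspartyl proteases 11 and 21. The name search for oleosins and caleosins found 13 genes compared, 12 higher and none lower. All 8 storage protein loci compared were higher, which were otherwise set apart.

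As a share of the summed FPKM of single protein-coding loci of 300 bases or more, the 40 genes furthest higher held 0.00401% in stage 1 and 16.7% in stage 4. The 40 furthest lower held 3.90% and 0.0112%. Oil body genes, many of them among the first 40, held 0.0280% and 5.04%. Ribosomal proteins held 16.9% and 5.42%, or 14.7% and 5.29% without the very short AT2G40205. Light reactions held 4.40% and 1.68%, carbon fixation 3.31% and 0.722%, and lipid transfer proteins 2.78% and 0.680%. Since FPKM is per length, these are shares of transcripts rather than of reads. Of 12 single storage protein loci, 5 were listed at 0 in stage 4, so their share of 6.14% leaves those genes out. One of them, SESA4, stood at 10984 FPKM in stage 3. Where such a 0 is a failed estimate, the stage 4 sum is too low and the other stage 4 shares are too high. CAB1, listed at 0 in stage 1, likewise adds nothing to the 4.40% of light reactions, a group at 6.46% in stage 2.

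**Figure D5:**
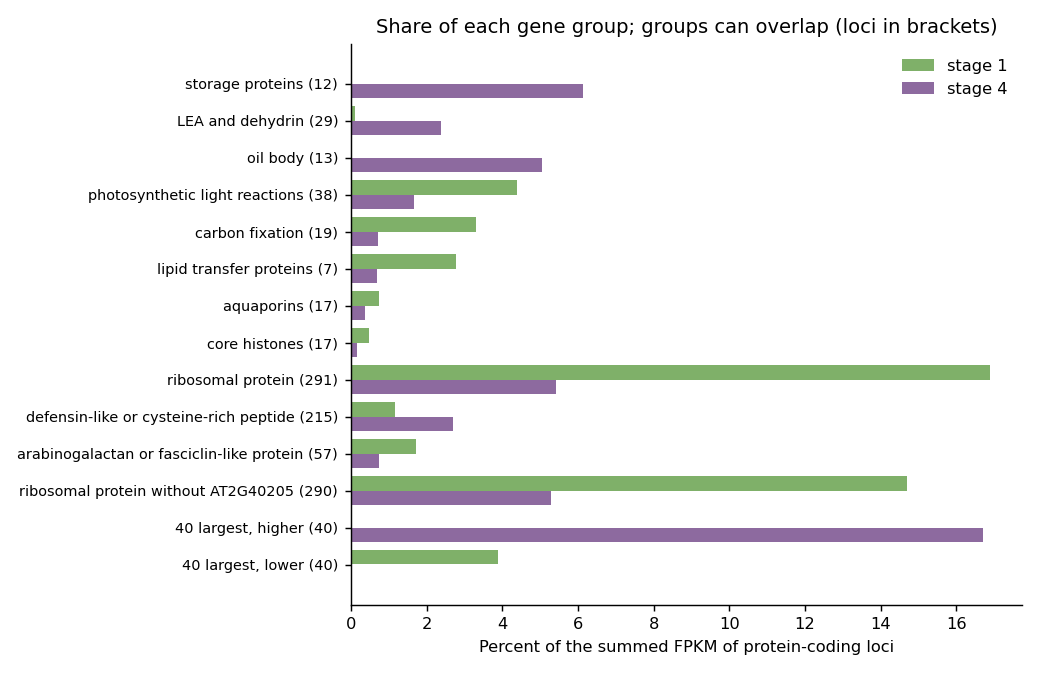
Percent of the summed FPKM of single protein-coding loci of 300 bases or more held by each gene group, with bars from 0. Green is the stage 1 library and purple the stage 4 library. The last 2 groups overlap with others, and the ribosomal proteins without AT2G40205 are part of the ribosomal protein group. Ribosomal proteins stand at 16.9% and 5.42%, and the 40 genes furthest higher at 0.00401% and 16.7%.

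A small net difference did not always mean a level course. Among single protein-coding genes with a net difference under 1, 4 had a stage between at least 8-fold above both ends, such as FSD1, an iron superoxide dismutase, at 39.9, 544, 367 and 48.0 FPKM. In 18 a stage between lay at least 8-fold below both ends, such as ARPN (plantacyanin) at 110, 0.819, 7.37 and 114 FPKM; 1 of the 18, UPL1, is counted only because stage 3 is listed at 0. The most abundant genes with a difference under 0.5 were UBQ11, CCL, CAT3, CP12-1 and RD19, of which the catalase CAT3 was at 905, 973, 1158 and 1179 FPKM. At the FPKM limit, MYB52 was just inside at 0.542 and 10.0 FPKM, and CSLC12 just outside at 6.17 and 9.99 FPKM. At the 2-fold limit, RUS6 was just inside at 23.6 and 48.2 FPKM, and LHCA1 just outside at 946 and 473 FPKM.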

How the data were processed

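The authors' deposited files hold FPKM, 1 value per Cufflinks locus, repeated for each gene of that locus. Per the submitters' processing notes TopHat, Cufflinks and Cuffdiff were used with the TAIR10 build; versions are not given in the sources used here. Per the labels' protocols the library kit was TruSeq RNA V2 with paired-end sequencing on a HiSeq instrument; it does not mark strand, so reads of an antisense partner count for either gene. Stages were taken from the label for developmental stage, since the growth protocol states different day limits for the first and last.

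The 30915 rows reduced to 29971 loci, 818 of several genes, of which 531 were compared. From these values log2(FPKM + 1) differences were computed, which understate the difference of low genes. Groups came from 29 lists of 534 genes and 25 families found by RefSeq product names, with 10 or more genes compared; 40 list genes have no row of their own and were not analysed here. The last 6 families and corrections to the name patterns came after values were seen. Members and lists were chosen with earlier results of these data known. Named genes were the 40 largest differences in each direction among single protein-coding loci, storage proteins left out, list and family members with high levels or large differences, 5 level abundant genes, and genes at each limit. ICL, the FMO GS-OX genes, the marked intermediate courses and the members of runs were chosen after their values were seen.

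Names are those of RefSeq (TAIR10.1). Of 28722 single-gene loci found there, 28721 overlapped the RefSeq gene and 8414 had both ends identical; coordinates are those deposited, and bases were read from TAIR10.1. Low FPKM values fell on steps, 1 fragment on 1500 bases being worth about 0.0101 FPKM in stage 1 and 0.0113 FPKM in stage 4, with 75.5% and 78.2% of values under 3.5 fragments within 0.2 of a whole number, where even spacing gives 40%. The lower value of 22 of the 80 named movers then rests on under 10 fragments. The scripts were tested on simulated data. Work was done in Python 3.11.15 with numpy 2.4.6, pandas 2.3.3, pysam 0.24.0, matplotlib 3.10.9 and blastn 2.17.0. Results were recomputed with pseudocounts of 0.1 and 5, with no FPKM minimum and minimums of 1 and 50, after 4 rescalings of stage 4, with loci listed at 0, and over single-gene or longer loci.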

Additional observations from a re-analysis of the deposited data

How the results depend on the processing

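With 1 library per stage no library could be left out, and no error between fruits is known. No paired analysis was possible because each stage is 1 library. Loci at least 2-fold higher and lower, and at least 8-fold higher and lower, numbered 9298, 662, 3307 and 267 under equal FPKM sums, where stage 4 was multiplied by 4.72. They numbered 1017, 1396, 381 and 313 with an FPKM minimum of 50, which leaves 3975 loci and 42.1% higher among the 2-fold calls. With a pseudocount of 5 the 8-fold counts were 347 and 295, since it shrinks low values. With equal upper quartiles the 2-fold counts were 2296 and 3256 and the share of higher ones 41.4%. In each of the other settings run, all 4 counts stayed within 1.5 times the reported ones; with loci shorter than 600 bases and the organelle copy left out, a setting chosen after seeing the data, they were 2706, 2699, 595 and 559.

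Under equal FPKM sums the group medians between -1 and 0 turned positive, and so did 9 of those below -1: aquaporins 0.13, light reactions 0.61, carbon fixation 0.55, wall loosening 1.04, flavonoids 0.23, floral organs and nectary 0.28, ribosomal proteins 0.81, organelle ribosomal proteins 1.00 and GASA peptides 0.88. Each stayed below the median of all loci there, 2.24. All 80 of the genes furthest higher or lower kept their direction and an 8-fold difference in the 6 pseudocount and scaling settings, the smallest being 4.22 on the log2 scale with a pseudocount of 5. Depth limits the lower end of these differences: 68 of the 80 rest on under 100 fragments in the lower library.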

Other observations

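Some genes outside the comparison were listed at 0 in 1 of the 2 libraries and stood at FPKM 100 or more in the other, 15 loci in all. A value of exactly 0 in such a file can be a failed estimate, so no fold is given. CAB1, a chlorophyll-binding protein of photosystem II, was listed at 0 in stage 1 and stood at 8249, 4352 and 2150 FPKM in stages 2 to 4. It has near-identical neighbouring copies, so its separate value is uncertain. M10, an LEA gene, was listed at 0 in stage 1 and stood at 0.256, 14.6 and 358 FPKM in the later stages. AT3G21380, named for a mannose-binding lectin, was listed at 0 and then stood at 0.0323, 34.9 and 359 FPKM. The P450 gene CYP702A6 was listed at 0 and then stood at 0.629, 33.4 and 120 FPKM. In the other direction, the defensin-like genes LCR38, at 132 and 82.1 FPKM in stages 1 and 2, and AT1G58055, at 106 and 95.1 FPKM, were listed at 0 in stages 3 and 4.

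Along the chromosomes, 38 pairs of neighbouring genes were both at least 8-fold higher and 32 both at least 8-fold lower, while 30 pairs held 1 of each. There were 5 runs of 3 such genes. In the run of LTI30 and XERO1, both dehydrins, with the peroxidase gene AT3G50990, on chromosome 3 from 18940431 to 18944811, all were higher. In the run of AT1G29500, SAUR68 and AT1G29520, small auxin-induced genes on chromosome 1 from 10321210 to 10324743, all were lower. How many such pairs a random order of genes would give was not tested.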
